A study of Danio rerio with 6 samples.

Results

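The germ plasm and germ cell genes described here were the 10 genes dnd1, nanos3, ca15b, dazl, ddx4, tdrd7a, tdrd6, tdrd1, piwil1 and piwil2, taken by gene name from the 31953 genes of the deposited files. Each name matched 1 row, and all 10 passed the filter on low values (10 or more in 3 or more libraries), as did 15971 genes in all. The libraries came from zebrafish embryos of the transgenic line Tg(krt18:krt18-GFP) at 6 hours post fertilisation, the start of gastrulation. Cells of about 1500 embryos were dissociated and sorted by GFP fluorescence. The 3 EVL libraries held GFP-positive cells of the enveloping layer, the thin epithelium that covers the embryo, with 10000 cells sorted. The 3 non-EVL libraries held GFP-negative cells, in a number the sources used here do not give. Both groups carried the transgene, in which krt18 sequences drive a GFP-tagged keratin, and no agent was applied to either.

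Zebrafish germ cells are set aside by germ plasm, a mix of maternal RNA and protein that the egg stores and that a few cells of the cleaving embryo inherit. Many maternal RNAs that are enriched in germ plasm are also present in the rest of the egg, and in somatic cells these copies are cleared in the hours after the embryo's own genome becomes active, whereas primordial germ cells keep them. Germ plasm RNAs include those for RNA-binding regulators, for Tudor domain scaffolds of germ granules, and for Piwi proteins, which use small RNAs called piRNAs to silence transposons. Primordial germ cells are known to lie among the deep cells of the blastoderm at this stage, and how many entered either sorted fraction was not measured here.

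Each library held 32.2M to 46.1M reads assigned to genes, of which 20.6M to 30.3M lay outside 1 gene, listed as AC024175.4, that took 30.1% to 42.7%. Values below are normalised reads, that is, reads divided by the library's size factor, so levels are compared between libraries and not between genes. All 14 EVL markers were called higher in EVL cells, with summed values of 710107 to 2355684 in EVL libraries and 36795 to 49356 in non-EVL libraries. EVL replicate 1 held the highest of these sums. The sums include krt18, the gene of the transgene used for sorting, so its rise followed largely from the sort. Whether reads of the transgene counted toward krt18 was not tested. Of 12 blastoderm markers, 5 were called lower in EVL cells (sox2, sox3, eve1, szl and her7) and 2 higher (sox32 and sox17). The 5 stood at 22.4% to 48.0% of their non-EVL means, and sox32 and sox17 at 583% and 588%. Sums over the 12 overlapped (44691 to 83095 in EVL libraries, 55690 to 78705 in non-EVL libraries). The largest part was tbx16 (means 27308 in EVL and 30033 in non-EVL cells, not called), so the sums hide changes of single markers. Of 7 markers of the yolk syncytial layer, 4 passed the filter, with log2 fold changes of -0.72 to 0.50 that were not called and sums over the 7 of 174 to 256 in EVL libraries and 113 to 271 in non-EVL libraries. The labels do not say that libraries of a group came from separate clutches or sorts. The p-values therefore speak only of the variation among these 6 libraries, and that variation may be technical.

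The 10 genes did not move together. The RNAs of dnd1, nanos3 and tdrd7a fell in EVL cells, to 5.66%, 10.2% and 13.1% of their non-EVL means. The RNA of ca15b, at 23.0%, was lower in every EVL library without passing the test. The RNA of ddx4 had almost equal group means, and dazl, tdrd6, piwil1 and piwil2 stood at 36.2% to 78.5% of the non-EVL mean with overlapping libraries and no call. The RNA of tdrd1 lay the other way, with every EVL library above every non-EVL library, and was not called. In counts, 3 of the 10 genes were called lower in EVL cells, against 0.676% of all tested genes, and 0 were called higher, against 8.80% (9.47% in either direction). Those calls used limma with a Benjamini-Hochberg adjusted p under 0.05. At an unadjusted p under 0.05 limma gave 5 members lower and 1 higher (tdrd1), with no share of all tested genes given here. At an adjusted p under 0.05 edgeR called 3 members lower and 0 higher, and DESeq2 called 4 lower and 1 higher. Among all tested genes, edgeR called 52 lower and 1422 higher with TMM scaling, and 70 and 1358 with DESeq2 size factors. DESeq2 called 333 of all tested genes lower and 1974 higher. The limma shares given above are therefore no background for the edgeR and DESeq2 counts. All EVL libraries lay below all non-EVL libraries in 4 members, against 13.5% of tested genes, and above them in 1 member, against 17.4%. The median log2 fold change was -1.22 over the 10 members and -0.06 over all tested genes, and the members' median was -0.71 without EVL replicate 1.

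**Figure D1:**
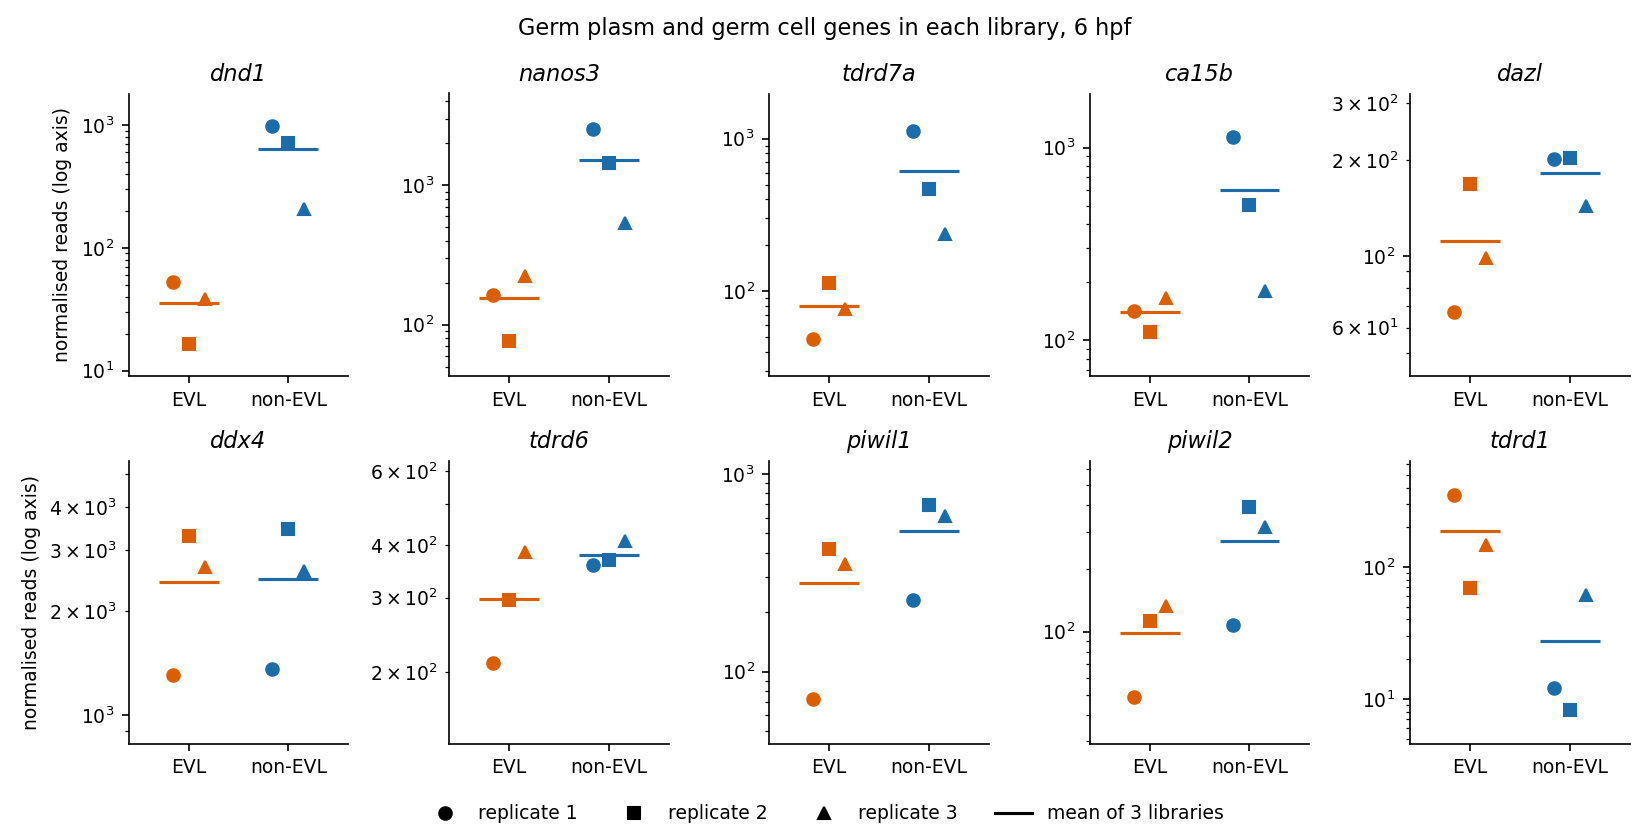
Normalised reads (log axis) of the 10 genes in each EVL and non-EVL library, with point shapes for replicates and bars for group means. The groups do not overlap for dnd1, nanos3, tdrd7a, ca15b and tdrd1, and ddx4 has nearly the same 3 values in both.

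The first genes are the RNA-binding regulators. The gene dnd1 (ENSDARG00000022813) encodes Dead end, an RNA-binding protein that shields germ cell transcripts from microRNA-mediated decay and is required for germ cell survival. It had 52.7, 16.6 and 38.3 normalised reads in EVL replicates 1, 2 and 3, against 981, 717 and 206 in non-EVL replicates 1, 2 and 3. Even the lowest non-EVL library lay well above the highest EVL library. The mean was 35.9 ± 18.2 in EVL cells and 634 ± 394 in non-EVL cells (SD, n = 3 each), and the log2 fold change of -3.98 (SE 0.65, 95% interval -5.47 to -2.49; limma, adjusted p = 0.00645) was the lowest of all 15971 tested genes. Bulk RNA cannot tell fewer germ cells in a fraction from less RNA per cell, and this holds for every value given here. The EVL values rest on few reads, with 40, 15 and 34 assigned to dnd1, and the exact Poisson interval of the 15 reads in EVL replicate 2 ran from 8.40 to 24.7 (counting error only). Without non-EVL replicate 3 the log2 fold change was -4.65 (limma, adjusted p = 0.00454). Over all 18 alternatives the call of dnd1 held, but its adjusted p rose to as much as 0.0488, close to the threshold.

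The gene nanos3 (ENSDARG00000068255) encodes a zinc finger RNA-binding protein, a translational repressor that primordial germ cells need to survive and migrate. EVL replicates 1, 2 and 3 held 163, 76.4 and 223 normalised reads of nanos3, against 2540, 1453 and 537 in the non-EVL replicates. The groups did not overlap, and the order of the non-EVL libraries was that of dnd1. The log2 fold change of nanos3 was -3.15 (SE 0.59, 95% interval -4.52 to -1.78; limma, adjusted p = 0.0128), with means of 154 ± 73.9 in EVL cells and 1510 ± 1003 in non-EVL cells (SD, n = 3 each). The call of nanos3 was lost without non-EVL replicate 2 (adjusted p = 0.0568), and without non-EVL replicate 3 its log2 fold change was -3.76 (adjusted p = 0.00662).

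The gene ca15b (ENSDARG00000040510) encodes a carbonic anhydrase whose RNA is found in zebrafish germ cells. It had 142, 110 and 166 normalised reads in EVL replicates 1, 2 and 3, against 1132, 501 and 180 in the non-EVL replicates. The EVL values lay close together while the non-EVL values spread widely, and non-EVL replicate 3 was only slightly above the highest EVL library. For ca15b the log2 fold change was -1.76 (SE 0.60, 95% interval -3.13 to -0.39), which did not pass after adjustment (limma, adjusted p = 0.120). It passed without non-EVL replicate 3 (-2.45, adjusted p = 0.0186), in DESeq2 (adjusted p = 0.00370) and after scaling to library size alone (adjusted p = 0.0490). Over all alternatives its adjusted p ran from 0.00370 to 0.290.

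The gene dazl (ENSDARG00000036214) encodes an RNA-binding protein that promotes translation of germ cell messages. It had 67.2, 168 and 99.2 normalised reads in EVL replicates 1, 2 and 3, against 201, 203 and 144 in the non-EVL replicates. EVL replicate 2 lay inside the non-EVL range and the other EVL libraries lay below it. Its log2 fold change was -0.79 (SE 0.40, 95% interval -1.70 to 0.12; limma, adjusted p = 0.286), so dazl was not called.

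The gene ddx4 (ENSDARG00000014373) encodes Vasa, an RNA helicase of germ granules and the most used marker of germ cells. It had 1304, 3296 and 2677 normalised reads in EVL replicates 1, 2 and 3, against 1363, 3453 and 2606 in the non-EVL replicates. Replicate 1 was the lowest and replicate 2 the highest in both groups, and the spread within a group was far wider than the gap between the groups. The means were 2426 ± 1020 in EVL cells and 2474 ± 1051 in non-EVL cells (SD, n = 3 each). The log2 fold change of -0.03 (SE 0.42, 95% interval -0.9996 to 0.94; limma, adjusted p = 0.978) was not called. Its interval leaves room for a change in either direction. That fit was on group alone, so the interval also counts the spread that same-numbered libraries of both groups shared. The intervals of ddx4 and dnd1 did not overlap.

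**Figure D2:**
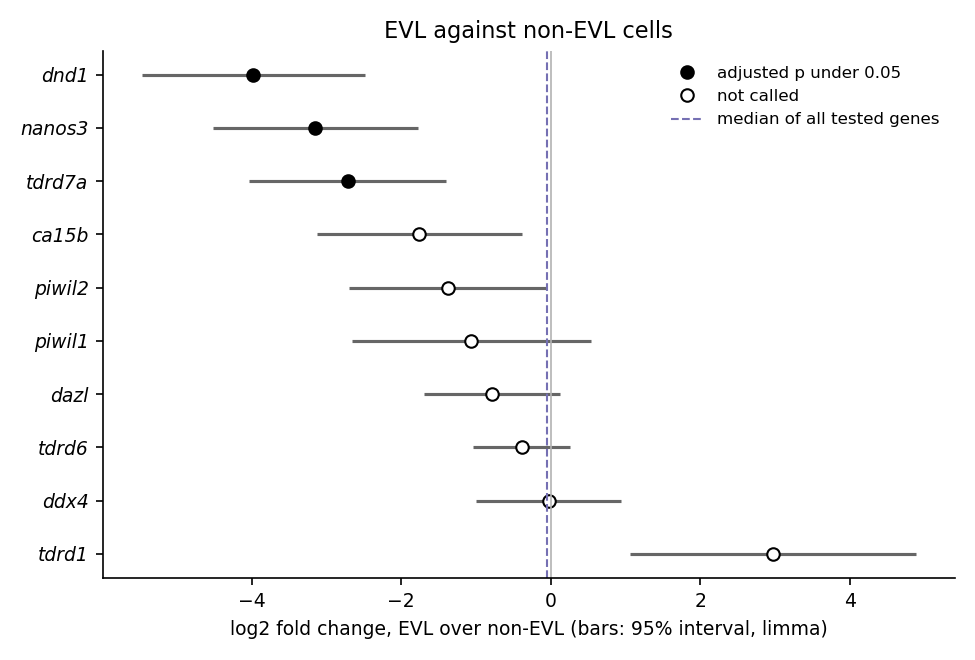
Log2 fold change of each member, EVL over non-EVL, with the 95% interval from limma as bars, filled points for adjusted p under 0.05 and a dashed line at the median of all tested genes. The values run from -3.98 (dnd1) to 2.97 (tdrd1), and 3 members are filled.

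Tudor domain proteins bind methylated arginines on Piwi and other germ granule proteins and hold the granules together. Of the 3 members of this class only tdrd7a was called, and differences between the 3 were not tested. The gene tdrd7a (ENSDARG00000032808), whose protein shapes the germ granules of zebrafish primordial germ cells, had 48.7, 114 and 76.7 normalised reads in EVL replicates 1, 2 and 3, against 1127, 471 and 237 in the non-EVL replicates. The groups did not overlap, and non-EVL replicate 1 again stood highest and non-EVL replicate 3 lowest. RNA of tdrd7a fell with a log2 fold change of -2.72 (SE 0.57, 95% interval -4.04 to -1.40; limma, adjusted p = 0.0211). This call was lost without EVL replicate 1 (adjusted p = 0.0669), EVL replicate 3 (0.0525) or non-EVL replicate 2 (0.0733), and in limma-voom (0.0768).

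The gene tdrd6 (ENSDARG00000070052) encodes a scaffold that in zebrafish interacts with Bucky ball and affects how germ plasm gathers. It had 209, 297 and 385 normalised reads in EVL replicates 1, 2 and 3, against 358, 368 and 408 in the non-EVL replicates. EVL replicate 3 lay within the narrow non-EVL range and the other EVL libraries below it. With a log2 fold change of -0.39 (SE 0.28, 95% interval -1.04 to 0.26; limma, adjusted p = 0.465), tdrd6 was not called.

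The gene tdrd1 (ENSDARG00000007465) encodes a Tudor protein that in zebrafish binds Piwi proteins and piRNAs. It had 352, 69.8 and 145 normalised reads in EVL replicates 1, 2 and 3, against 12.2, 8.27 and 61.3 in the non-EVL replicates. Each EVL library lay above each non-EVL library, though EVL replicate 2 and non-EVL replicate 3 came close. For tdrd1 the log2 fold change was 2.97 (SE 0.83, 95% interval 1.06 to 4.88; limma, adjusted p = 0.0663), which missed the threshold. The gene tdrd1 passed in 3 of 18 alternatives. These were limma without non-EVL replicate 3 (3.80, adjusted p = 0.0245), DESeq2 (adjusted p = 0.00814) and limma with a replicate block, given below. Over all alternatives its adjusted p ran from 0.00814 to 0.211. Non-EVL replicates 1 and 2 rest on 14 and 9 reads of tdrd1, with exact Poisson intervals of 7.65 to 23.5 and 4.12 to 17.1 reads. EVL replicate 1 was highest both in tdrd1 and in the summed EVL markers (2355684, against 1011952 and 710107 in EVL replicates 2 and 3). EVL replicates 2 and 3 stood in opposite orders for tdrd1 and for these sums. Among non-EVL libraries tdrd1 was lowest in replicate 2, which had the highest EVL marker sum (49356). The part of those markers in the tdrd1 result was not tested.

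Piwi proteins cut transposon RNA with piRNAs as guides, and zebrafish has a pair of them, encoded by piwil1 (Ziwi) and piwil2 (Zili). The gene piwil1 (ENSDARG00000041699) had 72.4, 416 and 352 normalised reads in EVL replicates 1, 2 and 3, against 231, 692 and 611 in the non-EVL replicates. Replicate 1 was the lowest library of both groups, and the groups overlapped. Its log2 fold change was -1.06 (SE 0.70, 95% interval -2.66 to 0.54; limma, adjusted p = 0.414). The gene piwil2 (ENSDARG00000062601) had 48.7, 113 and 133 normalised reads in EVL replicates 1, 2 and 3, against 108, 391 and 314 in the non-EVL replicates. Only non-EVL replicate 1 reached down into the EVL range. The log2 fold change of piwil2 was -1.38 (SE 0.57, 95% interval -2.70 to -0.06; limma, adjusted p = 0.198), so neither Piwi gene was called. In 1 of 18 alternatives, limma with a replicate block, piwil2 passed, as given below. The sources used here do not say how reads that match several genes were treated, so values of related genes such as piwil1 and piwil2 carry that uncertainty.

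The 4 members with every EVL library below every non-EVL library also shared an order among the non-EVL libraries. In dnd1, nanos3, tdrd7a and ca15b, non-EVL replicate 1 was highest and non-EVL replicate 3 lowest. Non-EVL replicate 1 was the highest non-EVL library in 38.9% of all tested genes. The share with non-EVL replicate 3 lowest as well is not given here, so the full order has no background share beside it. The highest non-EVL library exceeded the lowest by 4.77 times for dnd1, 4.73 times for nanos3, 4.76 times for tdrd7a and 6.27 times for ca15b. Over the 9578 genes with a non-EVL mean of at least 100 normalised reads this ratio had a median of 1.40, and 2.72% of them had a ratio at least as large as that of nanos3. These 4 genes therefore varied among non-EVL libraries far more than most genes did, and non-EVL replicate 3 held 29.9% to 38.7% of their non-EVL means.

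In EVL cells the same 4 genes shared no such order. The highest EVL library exceeded the lowest by 3.17 times for dnd1, 2.92 times for nanos3, 2.34 times for tdrd7a and 1.51 times for ca15b, beside a median of 1.52 over 10284 genes with an EVL mean of at least 100. The EVL means of dnd1 and tdrd7a lie below 100, so that median is no measure for them. EVL replicate 2 was lowest for dnd1, nanos3 and ca15b and highest for tdrd7a.

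The other members followed other orders. The genes ddx4, piwil1 and piwil2 had replicate 1 lowest in both groups. Their highest library exceeded their lowest by 2.53, 5.75 and 2.73 times in EVL cells and by 2.53, 2.99 and 3.63 times in non-EVL cells. Of genes with a non-EVL mean of at least 100, 10.4%, 7.11% and 4.57% had non-EVL ratios at least as large as these. Wide spread among non-EVL libraries was therefore not particular to dnd1, nanos3, tdrd7a and ca15b. Dazl and tdrd6 were even among non-EVL libraries, with ratios of 1.41 and 1.14, and less so among EVL libraries, with 2.51 and 1.84. The widest non-EVL ratio was that of tdrd1, 7.42, and its EVL ratio was 5.04.

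**Figure D3:**
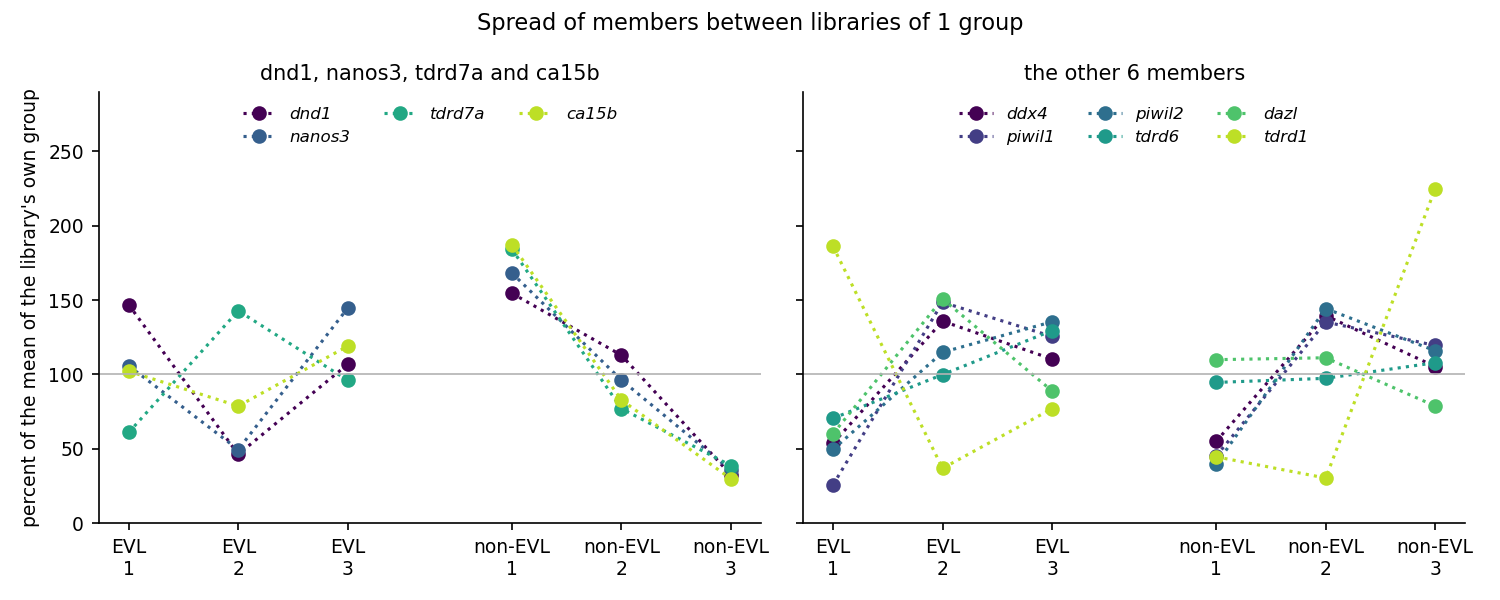
Each member's value in a library as a percent of its own group's mean, with dotted lines that join the libraries of a group and carry no order in time. The left panel shows dnd1, nanos3, tdrd7a and ca15b highest in replicate 1 and lowest in replicate 3 of the non-EVL cells, and the right panel shows ddx4, piwil1 and piwil2 lowest in replicate 1 of both groups.

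A ratio of a pair of genes within a library does not depend on the library's scaling, so each member was set against dnd1. The ratio of nanos3 to dnd1 was 3.10, 4.60 and 5.82 in EVL replicates 1, 2 and 3, and 2.59, 2.03 and 2.61 in the non-EVL replicates. Among non-EVL libraries nanos3 thus held nearly constant to dnd1 although both varied by at least 4.73 times. For tdrd7a the ratio was 0.925, 6.87 and 2.00 in EVL cells and 1.15, 0.658 and 1.15 in non-EVL cells. The ratio of ca15b was 2.70, 6.60 and 4.32 in EVL cells and 1.15, 0.699 and 0.877 in non-EVL cells. The EVL ratios of ca15b all lay above its non-EVL ratios, whereas those of tdrd7a overlapped.

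The ratio of ddx4 to dnd1 was 24.8, 198 and 69.8 in EVL replicates 1, 2 and 3, against 1.39, 4.82 and 12.7 in the non-EVL replicates. The mean difference in log2 ratio for ddx4 was 3.95. The gene dnd1 had the lowest log2 fold change of all tested genes, so the choice of dnd1 as denominator fixed that ratios to it would on average be higher in EVL cells. The ratios are therefore given as a description, with no test. All 9 ratios share dnd1, so they are not independent. In EVL replicates 1, 2 and 3 they rest on 40, 15 and 34 reads of dnd1, so their counting error is wide.

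**Figure D4:**
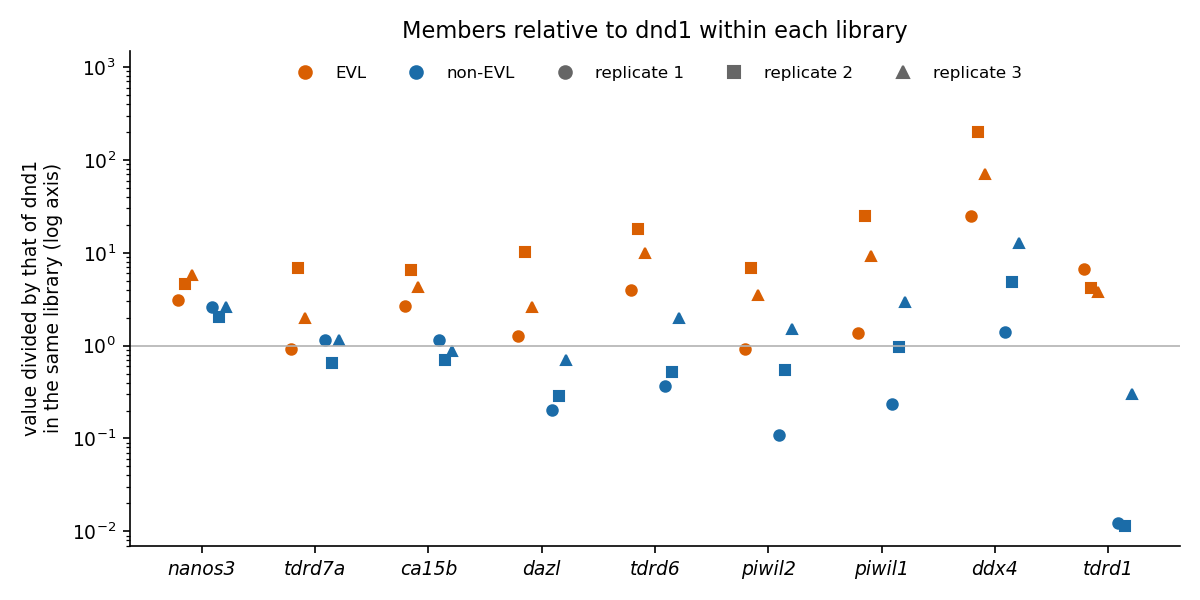
Value of each of the other 9 members divided by that of dnd1 in the same library (log axis), in EVL and non-EVL cells, with point shapes for replicates. The ratios of nanos3 lie between 2.03 and 5.82 in all 6 libraries, and those of ddx4 run from 1.39 to 198.

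The genes with the profile most like dnd1 were sought among the other 15970 tested genes. Likeness was the root mean square difference of log2(value + 1), each gene taken relative to its own mean over the 6 libraries. This measure includes the gap between EVL and non-EVL cells, so the ranks are not separate from the fold changes given above. The nearest gene was nanos3, with a difference of 0.50, and tdrd7a and ca15b ranked 5 and 8 with 1.07 and 1.18. The other members ranked 1160 (dazl), 1207 (piwil2), 4204 (tdrd6), 7733 (piwil1), 10625 (ddx4) and 15122 (tdrd1). Besides the members, the 8 nearest held wnt4a (a Wnt ligand), smarcd3a (a subunit of a chromatin remodeller), cyp2r1 (a vitamin D hydroxylase), dmrt1 (a transcription factor of the gonad) and erfl1.

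Those 5 genes were all at low levels. They were picked for likeness to dnd1, so values lower in EVL than in non-EVL cells followed largely from the choice. Their adjusted p-values are given as a description and are no separate evidence of a fall. All 5 passed the filter on low values through their non-EVL libraries alone. Dmrt1 had 7.90, 0 and 6.77 normalised reads in EVL replicates 1, 2 and 3, against 26.1, 33.1 and 40.2 in the non-EVL replicates, and was not called (limma, adjusted p = 0.0861). Wnt4a had 2.63, 0 and 5.64 in EVL replicates, against 36.5, 25.7 and 24.7 in non-EVL replicates, and fell (limma, adjusted p = 0.0447). Smarcd3a had 6.59, 0 and 0 in EVL replicates, against 22.6, 24.8 and 27.5 in non-EVL replicates, and fell (limma, adjusted p = 0.0498). Among non-EVL libraries, dmrt1, wnt4a and smarcd3a varied far less than dnd1.

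Of 83 other genes listed for germ plasm, piRNAs, germ cell guidance, later germ cells and the oocyte, 75 matched a row of the files and 68 passed the filter. In EVL cells 3 of these rose (8.80% of all tested genes did), 1 fell (0.676% of all tested genes did) and 64 were not called. The share that rose was below that of all tested genes.

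Among 18 further genes of germ plasm and germ granules, 1 rose and 1 fell, beside 8.80% and 0.676% of all tested genes, and the median log2 fold change was -0.25. The gene that fell was tdrd3 (ENSDARG00000025421), a Tudor protein not restricted to germ cells, with 416, 536 and 671 normalised reads in EVL replicates 1, 2 and 3, against 1076, 1120 and 943 in the non-EVL replicates (log2 fold change -0.97, SE 0.23; limma, adjusted p = 0.0327). Groups did not overlap for tdrd3, but its call was lost without EVL replicate 1 (adjusted p = 0.0677), EVL replicate 2 (0.0883) or non-EVL replicate 1 (0.0794), 2 (0.134) or 3 (0.0846), and in edgeR with TMM (0.0518). The gene that rose was macf1a (ENSDARG00000028533), a linker of actin and microtubules that organises the zebrafish oocyte and is also used by many other cells. It had 1710, 366 and 423 normalised reads in EVL replicates 1, 2 and 3, against 140, 39.5 and 121 in the non-EVL replicates (log2 fold change 2.86, SE 0.68; limma, adjusted p = 0.0353). EVL replicate 1, the library with the highest EVL marker sum, also led in macf1a. Without it the log2 fold change of macf1a was 2.15 and the call was lost (adjusted p = 0.0709), as it was without non-EVL replicate 2 (2.29, 0.110) or 3 (3.09, 0.0762) and in limma-voom (0.0604). Among non-EVL libraries macf1a was highest in replicate 1, which had the lowest EVL marker sum (36795). The part of the EVL markers in the rise of macf1a was not tested.

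The uncalled genes of this list with the highest levels were ybx1 and igf2bp3, RNA-binding proteins of maternal messages. The mean of ybx1 was 74151 ± 3384 in EVL cells and 70527 ± 6279 in non-EVL cells (log2 fold change 0.08), and that of igf2bp3 was 11022 ± 1695 in EVL cells and 14575 ± 1961 in non-EVL cells (log2 fold change -0.41; SD, n = 3 each). The EVL libraries of igf2bp3 all lay below the non-EVL libraries, as did those of 8 of the 18 genes on this list, against 13.5% of all tested genes.

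None of the 13 tested partner genes of the piRNA pathway was called by limma on group alone. Of all tested genes, 8.80% were called higher and 0.676% lower. At an unadjusted p under 0.05, 0 of the partner genes passed, with no share of all tested genes given here. By edgeR and DESeq2, 0 of these genes were called. Their log2 fold changes were negative for 12 of 13, beside 53.8% of all tested genes, with a median of -0.53. With TMM scaling 11 of 13 were negative. This median moved when single libraries were left out. It was -0.23 without EVL replicate 1 (10 of 13 negative) and -0.32 without non-EVL replicate 2 (10 of 13). Without EVL replicate 3 it was -0.84, and without non-EVL replicate 1 it was -0.85. Replicate 1 was the lowest library of both groups for 11 of the 13 genes, beside 18.1% of all tested genes. Leaving out 1 of these low libraries kept the other in the fit, and its part in the shifts was not tested. Gtsf1, a zinc finger partner of Piwi proteins, had 6962, 13654 and 9900 normalised reads in EVL replicates 1, 2 and 3, against 6678, 16020 and 11143 in the non-EVL replicates (log2 fold change -0.11). The Tudor gene tdrd15 had 601, 1263 and 992 in the EVL replicates, against 853, 1782 and 1505 in the non-EVL replicates (log2 fold change -0.53). Replicate 1 was the lowest library of both groups for gtsf1 and tdrd15, as for piwil1, piwil2 and ddx4.

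Of 8 tested genes that guide migrating germ cells, 1 rose, a share near the 8.80% of all tested genes. This was ackr3b, a scavenger receptor by which somatic cells clear the chemokine Cxcl12, with 4843, 11942 and 8641 normalised reads in EVL replicates 1, 2 and 3, against 2611, 1989 and 1992 in the non-EVL replicates (log2 fold change 1.86, SE 0.31; limma, adjusted p = 0.00726). Every EVL library of ackr3b was above every non-EVL library. The Cxcl12 receptor on germ cells is encoded by cxcr4b, which had 669, 2992 and 2814 normalised reads in EVL replicates 1, 2 and 3, against 1613, 8216 and 6403 in the non-EVL replicates. It was not called (log2 fold change -1.30, SE 0.73; limma, adjusted p = 0.334). Its paralog cxcr4a had a log2 fold change of 1.16 (limma, adjusted p = 0.128).

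Of 11 tested genes of later germ cells and meiosis, 1 rose, again near the 8.80% of all tested genes. This was gfra1a, a receptor subunit for the growth factor GDNF that marks spermatogonia in mammals and is also used in neural tissue. It had 248, 169 and 107 normalised reads in EVL replicates 1, 2 and 3, against 31.3, 13.8 and 32.4 in the non-EVL replicates (log2 fold change 2.72, SE 0.49; limma, adjusted p = 0.0101), with no overlap. The meiotic crossover gene mlh3 had 149, 147 and 63.2 normalised reads in EVL replicates 1, 2 and 3, against 253, 94.6 and 118 in the non-EVL replicates, and was not called (log2 fold change -0.34). Another 6 genes of this list were below the filter.

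None of 18 oocyte maternal transcripts was called by limma on group alone, beside 8.80% of all tested genes called higher and 0.676% lower. At an unadjusted p under 0.05, 2 of the transcripts were lower and 1 higher, with no share of all tested genes given here. Without non-EVL replicate 3 limma called 1 of them higher. By edgeR and DESeq2, 0 of these transcripts were called. Their median log2 fold change was 0.11, and it turned negative without non-EVL replicate 1 (-0.11), with library size alone (-0.19, where 2 were called lower) and with upper quartile scaling (-0.07). The cyclin genes ccnb1 and ccnb2, the highest in level, averaged 12791 ± 2422 and 2970 ± 456 normalised reads in EVL cells, against 19633 ± 5131 and 4310 ± 874 in non-EVL cells (SD, n = 3 each). Their log2 fold changes were -0.60 and -0.53 (limma, adjusted p = 0.175 and 0.165).

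**Figure D5:**
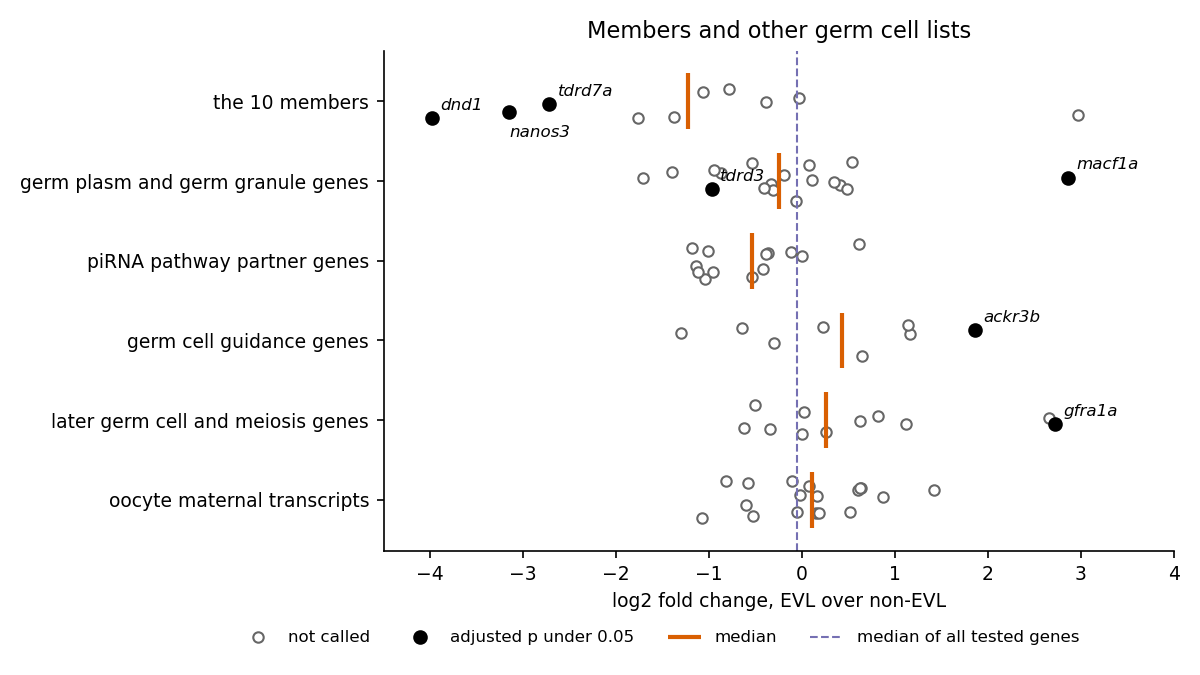
Log2 fold changes, EVL over non-EVL, of the 10 members and of the 5 lists, with filled points for adjusted p under 0.05, an orange bar at each list's median and a dashed line at the median of all tested genes. The members reach further down than any list, with dnd1, nanos3 and tdrd7a filled, and the medians of the lists lie between -0.53 and 0.43.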

How the data were processed

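RNA of sorted GFP-positive and GFP-negative zebrafish cells (3 libraries each) was sequenced, per the labels' protocols, with SMARTseq2 libraries and 50-nt single-end reads. The submitters' processing notes name Trim Galore, STAR 2.6.1d, featureCounts, DESeq2 and danRer10. The annotation, the strand setting and how multiply matching reads were handled are not in the sources used here. SMARTseq2 carries no molecular identifiers and no strand, so antisense partners cannot be told apart.

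The deposited signal values were whole reads divided by a size factor: 100% of values came out whole within 0.01 read, and recomputing DESeq2 size factors on them gave the same factors. Genes at 10 or more in 3 or more libraries entered a limma fit of log2(value + 1) on group alone, with a mean-variance trend and robust shrinkage, and a gene was called where its adjusted p (Benjamini-Hochberg) was under 0.05. Fold changes are on that scale, which understates those of low genes. Alternatives were other pseudocounts, filters and scalings, edgeR, DESeq2 and limma-voom on recovered reads, a replicate block and leaving out each library. On the recovered reads edgeR with TMM called 1422 genes higher and 52 lower, against 1405 and 108 with limma. The tools were limma 3.58.1, DESeq2 1.42.0 and edgeR 4.0.16 under R 4.3.3.

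The members and lists were chosen with earlier results of these data known, so counts over them are descriptions. Named were all members, every called gene of a list, its 2 uncalled genes with the highest level, and the 8 tested genes most like dnd1, leaving out clone names. Of 83 listed genes 8 had no match by name (kop, mael, pnldc1, ackr3a, nanos2, meioc, nobox and zp3). A listed gene that this rule names is not reported here.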

Additional observations from a re-analysis of the deposited data

How the results depend on the processing

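The call of dnd1 held in all 18 alternatives (log2 fold change -4.65 to -3.52, adjusted p up to 0.0488). Genes called lower in EVL cells numbered 108, and 1191 with library size alone, 269 with upper quartile scaling, 62 with TMM scaling, 52 in edgeR with TMM, 70 in edgeR with DESeq2 size factors, 333 in DESeq2, 47 in limma-voom and 14 to 77 when 1 library was left out. The median of all genes moved to -0.36 under library size scaling and to -0.23 under the upper quartile, and 8 of the 10 members lay below it in each of these. Members called lower numbered 3, and 1 to 4 when 1 library was left out. Members called higher numbered 0, but 1 in DESeq2 and 0 to 1 when 1 library was left out. Of the listed genes 1 was called lower, but 9 with library size alone, 0 in edgeR with TMM, 2 in DESeq2 and 0 to 1 when 1 library was left out, while 3 were called higher, but 5 in DESeq2, 2 in limma-voom and 2 to 4 when 1 library was left out. The log2 fold change of ddx4 changed sign with TMM scaling (0.018), in edgeR with TMM (0.024), in limma-voom (0.029) and without EVL replicate 1 (0.37), non-EVL replicate 2 (0.26) or non-EVL replicate 3 (0.057), over a range of -0.41 to 0.37 when 1 library was left out. Its adjusted p was at least 0.561 in all alternatives. The cause of these shifts was not tested. Low read numbers limit dnd1 in EVL cells and tdrd1 in non-EVL cells.

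Same-numbered libraries deviated together with correlations of 0.26, 0.33 and 0.07. Differently numbered libraries had correlations of -0.27 to -0.02, so every library correlated best with its own number. The third same-number correlation was weak, and the numbers were not taken as pairs. The main calls therefore count any variation that same-numbered libraries shared as error. With the replicate block in limma 279 genes were called lower, 4 members lower (piwil2 added, adjusted p = 0.0300) and 1 higher (tdrd1, adjusted p = 0.0422). This fit also called 5 listed genes lower and 4 higher. Those called lower held 1 piRNA partner gene and 1 oocyte maternal transcript.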

Other observations

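Replicate 1 was the lowest library of both groups for 11 of the 13 tested piRNA partner genes (84.6%) and for both Piwi genes, as it was for 9 of the 18 oocyte maternal transcripts (50.0%) and for 18.1% of all tested genes. This pattern was noticed after the values were seen, and no test was run on it.

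Profiles were also compared with those of ddx4 and tdrd1, a step added after the values were seen that used the same measure of likeness over the 6 libraries. The gene most like ddx4 was efhd1, with a root mean square difference of 0.10. Efhd1 had 950, 2442 and 1837 normalised reads in EVL replicates 1, 2 and 3, against 1152, 2789 and 2095 in the non-EVL replicates, with no call (limma log2 fold change -0.22, adjusted p = 0.798). The gene most like tdrd1 was cygb1, which encodes a cytoglobin, with a difference of 0.38. Cygb1 had 112, 15.5 and 57.5 normalised reads in EVL replicates 1, 2 and 3, against 2.61, 0.919 and 10.6 in the non-EVL replicates, with no call (limma log2 fold change 3.47, adjusted p = 0.0591). Efhd1 and cygb1 were picked for likeness over the 6 libraries, so their fold changes followed largely from the choice. Their adjusted p-values are given as a description and are no separate evidence.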
